A study of Mus musculus with 12 samples.

Results

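The immediate early genes described here are Fos, Fosb, Jun, Junb, Jund, Egr1, Ier2, Btg2, Dusp1 and Klf6, taken by symbol from the table of normalized expression, where all 10 were found among 20143 genes. Liver RNA of 12 mice was sequenced with 1 library per mouse, 6 wild-type mice (WT) and 6 Hsd17b13-KO mice (KO), numbered 1 to 6 in each group. Both groups received CDAA-HFD, a choline-deficient and amino acid-defined high-fat diet, started when the mice were 8 to 10 weeks old and kept up for 12 weeks. No mouse on another diet serves as a baseline. Hsd17b13 encodes a lipid droplet enzyme of hepatocytes, and the comparison of KO with WT asks which liver transcripts depend on it. The sources used here do not give strain, sex, litter, the order and hour of dissection or the exact deletion.

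Immediate early genes are transcribed within minutes of a stimulus without new protein synthesis, through factors such as SRF, the ETS-family ternary complex factors and CREB that wait at their promoters. Their transcripts and proteins are short-lived, so a level in a tissue extract is a snapshot of recent signalling. Fos and Jun proteins pair into the transcription factor AP-1, Egr1 and Klf6 are zinc finger transcription factors, and Btg2 and Dusp1 restrain the proliferation and kinase signals that induce them. In liver these genes are known to respond to partial hepatectomy, cytokines, feeding hormones and tissue handling.

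Values are CPM, counts scaled to 1000000 per library, given as mean ± SD of 6 mice unless stated otherwise. From the smallest step between values, 1 CPM stood for 46.3 to 77.9 counts in a library. Of the members, 9 averaged 10 CPM or more across all mice and were tested. Fosb, at 6.24 CPM, lay below that minimum and comes from the same fit without it. Counting error was at most 4.66% of a value for the tested members and 16% for Fosb, whose lowest library held 39 counts. Hsd17b13 ran from 315 to 393 CPM in the WT mice and from 0.956 to 1.4 in the KO mice, so every library followed its label. All 6 hepatocyte markers were abundant, with a summed level of 64600 to 85100 CPM. WT mouse 1 and KO mouse 3 stood apart by Cela2a, a pancreatic elastase gene, at 150 and 73.9 CPM against at most 1 CPM in the other mice. Differences without either of these 2 mice lie within the ranges given below for each mouse left out in turn.

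Promoter windows of 300 bases, from 250 before the start site, were found for 8 members in the RefSeq table (GRCm38.p6). There was no entry for Egr1 or Ier2, and the RefSeq starts used here differ from the ends of the GENCODE spans for some members. Those of Jund, Junb and Btg2 lie upstream of the span and that of Dusp1 lies well inside it. The whole window of Jund, which ends at base 70697788, lies before its span, which begins at 70698949. Windows are shown for 5 members that hold TGACG, the core of a CREB site, and for Klf6, which lacks it and followed the other members least closely across mice. Capitals mark matches on either strand to TGACG, to its palindrome TGACGTCA, to the TATA motif TATAA and to the CCAAT box.
Fos promoter (chr12:85473640-85473939, plus strand): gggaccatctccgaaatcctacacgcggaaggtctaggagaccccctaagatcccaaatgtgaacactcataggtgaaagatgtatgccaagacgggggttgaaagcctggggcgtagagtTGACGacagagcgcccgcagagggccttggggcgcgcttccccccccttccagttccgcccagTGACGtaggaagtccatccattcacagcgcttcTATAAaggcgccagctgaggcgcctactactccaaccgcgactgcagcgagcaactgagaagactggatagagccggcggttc
Fosb promoter (chr7:19309996-19310295, minus strand): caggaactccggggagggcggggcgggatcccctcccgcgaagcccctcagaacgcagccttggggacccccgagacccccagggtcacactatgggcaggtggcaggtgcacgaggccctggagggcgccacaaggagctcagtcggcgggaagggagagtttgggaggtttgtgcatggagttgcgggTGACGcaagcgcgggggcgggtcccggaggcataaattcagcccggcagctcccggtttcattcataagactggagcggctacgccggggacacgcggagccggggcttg
Junb promoter (chr8:84978699-84978998, minus strand): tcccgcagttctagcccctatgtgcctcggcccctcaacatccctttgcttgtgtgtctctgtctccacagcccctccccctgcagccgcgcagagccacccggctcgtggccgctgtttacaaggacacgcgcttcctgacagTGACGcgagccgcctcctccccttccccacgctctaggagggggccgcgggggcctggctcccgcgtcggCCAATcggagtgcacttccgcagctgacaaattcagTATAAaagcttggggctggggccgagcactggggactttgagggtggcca
Btg2 promoter (chr1:134079106-134079405, minus strand): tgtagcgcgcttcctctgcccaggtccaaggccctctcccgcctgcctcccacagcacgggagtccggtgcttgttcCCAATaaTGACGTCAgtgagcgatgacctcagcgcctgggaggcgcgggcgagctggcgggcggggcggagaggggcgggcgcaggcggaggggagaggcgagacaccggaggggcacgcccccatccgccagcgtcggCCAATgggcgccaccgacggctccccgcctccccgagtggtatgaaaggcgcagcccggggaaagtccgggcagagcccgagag
Dusp1 promoter (chr17:26508423-26508722, minus strand): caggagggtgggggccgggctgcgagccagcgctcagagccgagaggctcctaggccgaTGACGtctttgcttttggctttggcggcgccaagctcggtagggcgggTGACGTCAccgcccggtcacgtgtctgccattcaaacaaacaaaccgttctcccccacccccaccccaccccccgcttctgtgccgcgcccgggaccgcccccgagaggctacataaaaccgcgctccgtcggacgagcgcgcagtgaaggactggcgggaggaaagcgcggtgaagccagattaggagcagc
Klf6 promoter (chr13:5861239-5861538, plus strand): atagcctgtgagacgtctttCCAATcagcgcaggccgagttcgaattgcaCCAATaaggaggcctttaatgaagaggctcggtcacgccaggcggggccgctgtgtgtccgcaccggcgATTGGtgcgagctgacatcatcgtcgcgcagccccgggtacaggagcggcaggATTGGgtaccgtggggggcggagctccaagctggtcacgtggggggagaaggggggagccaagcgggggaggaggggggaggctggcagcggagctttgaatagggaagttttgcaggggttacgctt

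TGACG on either strand was in 5 of the 8 windows (Fos, Fosb, Junb, Btg2 and Dusp1), and in 33.2% of the 6991 windows of tested genes and 21.02% of all 27025 windows. Fos holds it at positions -129 to -125 and -66 to -62 relative to the start base, counted as 0. The palindrome TGACGTCA, which contains TGACG on both strands, was in Btg2 and Dusp1 (3.25% of windows of tested genes). TATAA on either strand was in Fos and Junb (13.1% of windows of tested genes). CCAAT on either strand was in Btg2, Jun, Junb and Klf6 (38.05%), with 4 copies in Klf6. The CArG box, the sequence bound by SRF, was in 0 of the 8 windows (1.32% of windows of tested genes), and so was TGACTCA, an AP-1 site (3.78%). These matches describe letters in a window and not sites in use. Bases outside the windows were not searched, and Egr1 and Ier2 had no window. The absence of the CArG box or TGACTCA from the windows therefore does not show that a member lacks SRF or AP-1 sites.

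Per kilobase of annotated exon, Jund was the most abundant member and Fosb the least. On this scale, over all 12 mice, Jund was at 104 ± 16.4 CPM per kilobase (SD, n = 12), followed by Jun at 53.5 ± 11.4, Junb at 41.6 ± 11.3, Btg2 at 30.3 ± 12 and Egr1 at 27.6 ± 13.2. Ier2 was at 23.1 ± 5.47, Klf6 at 21.5 ± 4.37, Dusp1 at 18.5 ± 6.74, Fos at 11.9 ± 7.58 and Fosb at 0.999 ± 1.09. Only the gap from Jund to Jun and the gap from Fos to Fosb exceeded the spread of neighbours, in that their ranges of mean ± SD did not overlap.

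The members lie on chromosomes 1, 4, 7, 8, 12, 13, 17 and 18, with Junb, Jund and Ier2 on chromosome 8 and 0 of them on chromosome 5, which carries Hsd17b13. On mm10, Fos (ENSMUSG00000021250) spans 85473890 to 85477273 of chromosome 12 and Egr1 (ENSMUSG00000038418) spans 34859823 to 34864984 of chromosome 18. Junb (ENSMUSG00000052837) spans 84974484 to 84978718 of chromosome 8 and Klf6 (ENSMUSG00000000078) spans 5861482 to 5870394 of chromosome 13. All 10 are annotated as protein coding. Some overlap other genes. Junb shares 176 bases of exon with Prdx2 on the opposite strand (76.9 ± 2.73 CPM over the 12 mice), Jun shares 232 with the antisense gene Junos (0.591 ± 0.145 CPM), and the annotated span of Dusp1 overlaps Ergic1 (63.3 ± 5.32 CPM). The sources used here do not say whether counting used the strand, so reads in shared bases cannot be assigned. At 95% identity or more, the only other annotated transcript that matched a member was Gm11175, which shares 543 bases with Jund. The sources used here do not say how reads in those bases were counted, so they cannot be assigned either.

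The genotypes did not separate on any member. Of 9 tested members 0 passed limma at an adjusted p of 0.05, where 0.152% of the 9186 tested genes did and 0.0435% did with a lower KO level, and Fosb did not pass in the fit without a minimum (0.144% of 20143 genes). The ranges of WT and KO overlapped for all 10, whereas they were apart for 0.893% of tested genes. KO means of log2(CPM + 1) were lower for 8 of the 9 tested members and for Fosb, compared with 54.4% of tested genes. The median difference of the tested members was -0.20 against -0.01 over all tested genes. At an unadjusted p under 0.05, 1 member lay lower in KO, Klf6, as did 5.29% of tested genes. Members vary together across mice, as shown further on, so this count of directions does not come from 9 separate observations. Because whole liver was extracted, fewer cells of a type and less RNA per cell cannot be told apart.

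**Figure D1:**
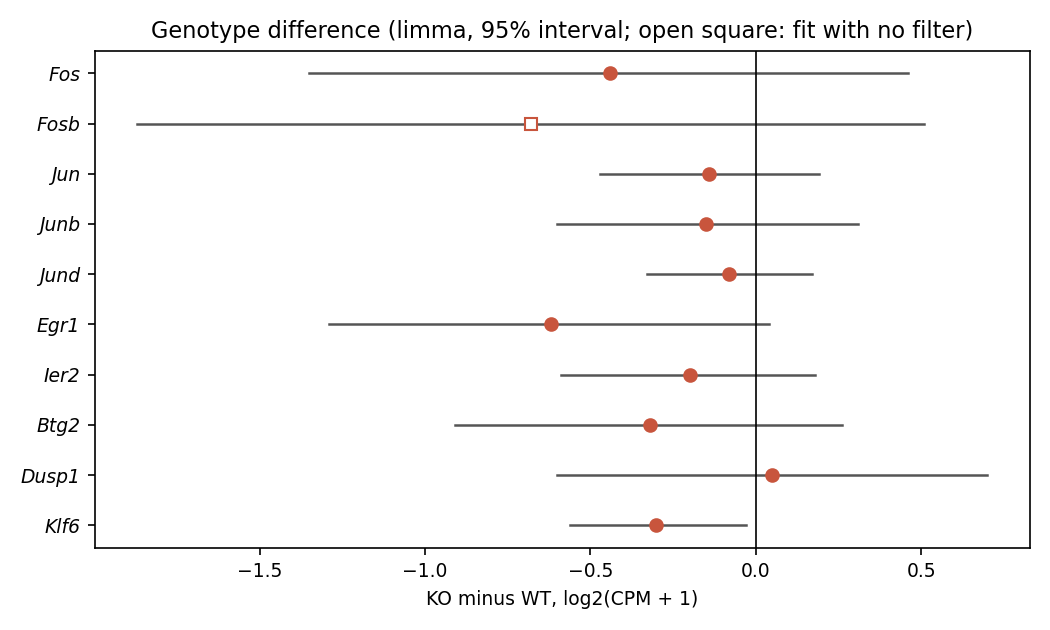
Difference KO minus WT of log2(CPM + 1) for each immediate early gene, with its 95% interval from limma (6 WT and 6 KO mice). Filled circles are tested genes and the open square is Fosb from the fit with no minimum. The intervals cross 0 for every gene except Klf6 (-0.56 to -0.03), whose adjusted p is 0.415.

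Among the AP-1 genes, Fos and Fosb spread more widely between mice than Jun, Junb and Jund. Fos, the inducible partner of Jun, ranged from 12.7 to 53 CPM in WT (median 30.1) and from 9.93 to 64.4 in KO (median 18.9). KO mouse 1 held the highest value of all 12 mice and KO mouse 2 the lowest, so the KO range enclosed the WT range. The means were 31.4 ± 16.4 and 24.4 ± 20 CPM (log2 difference -0.44, 95% interval -1.35 to 0.46, limma adjusted p = 0.809). Without KO mouse 1 the KO mean was 16.4 ± 4.6 and the log2 difference -0.77, and without WT mouse 3 the difference was -0.26.

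Fosb, a slower and rarer relative of Fos, followed the same mice. It ranged from 1.85 to 20.7 CPM in WT (median 5.8) and from 0.842 to 19.3 in KO (median 2.43). WT mouse 3 and KO mouse 1 lay far above the rest of their groups. The means were 7.48 ± 6.97 and 5 ± 7.07 CPM (log2 difference -0.68, limma adjusted p = 0.755), and the difference was -1.14 without KO mouse 1 and -0.34 without WT mouse 3.

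The Jun genes showed narrower ranges than Fos and Fosb. Jun, the founding AP-1 subunit, ranged from 138 to 231 CPM in WT (median 169) and from 124 to 200 in KO (median 158). Junb, which is induced together with Jun and can oppose it, ranged from 59.2 to 135 (median 113) and from 64.5 to 112 (median 88). Jund, the constitutive member of the family, ranged from 139 to 229 (median 170) and from 143 to 202 (median 163). The ranges overlapped in each case, with WT mice 3 and 4 above all KO mice. The log2 differences were -0.14 for Jun (SE 0.15, limma adjusted p = 0.844), -0.15 for Junb (SE 0.21, 0.896) and -0.08 for Jund (SE 0.12, 0.89).

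**Figure D2:**
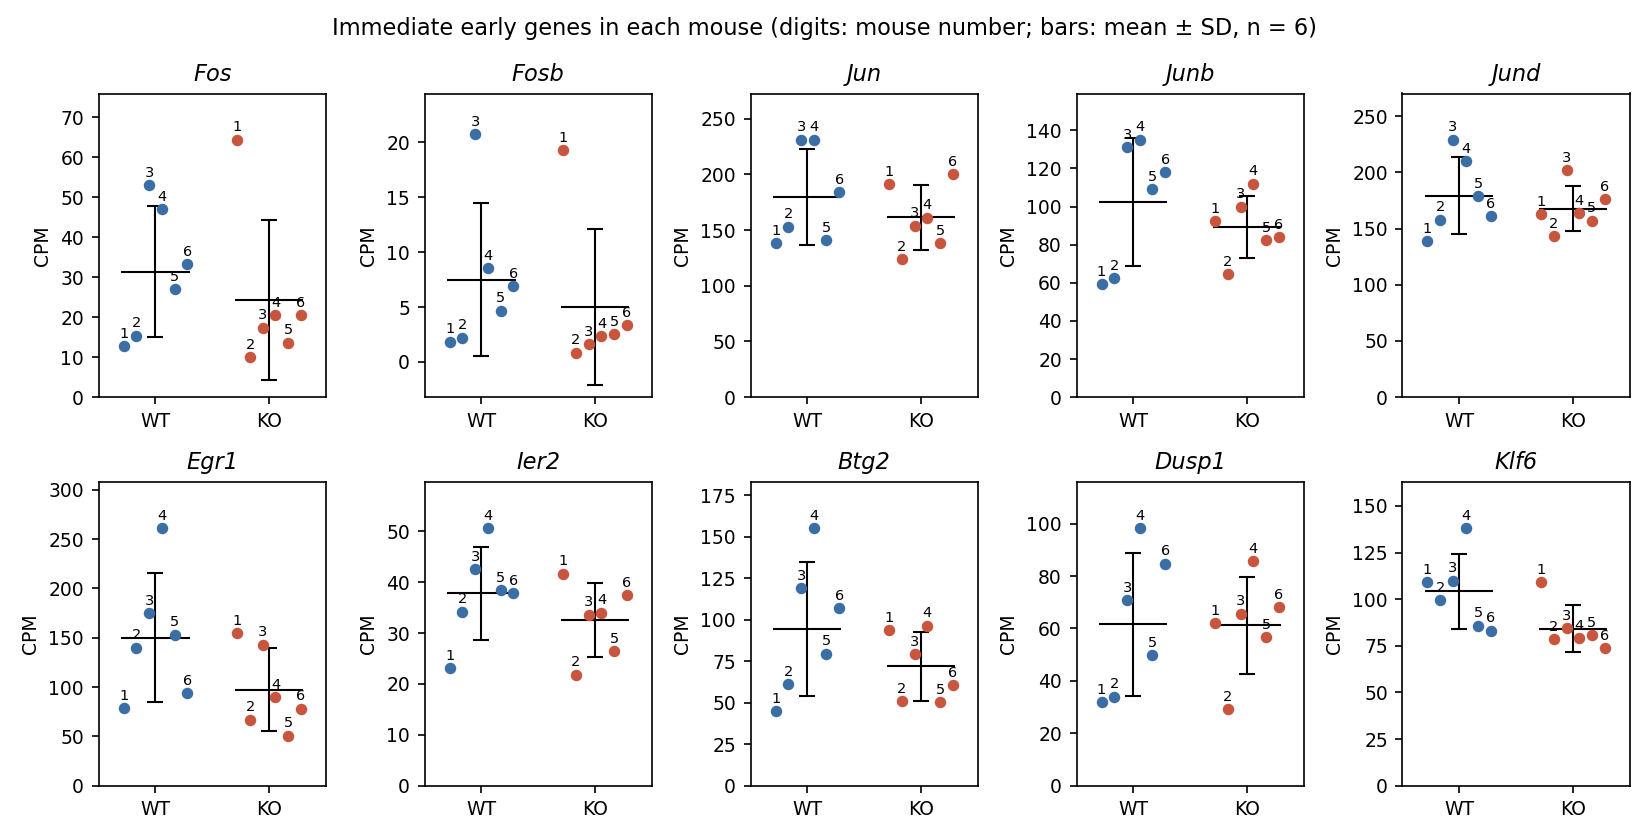
CPM of each immediate early gene in every mouse (points, labelled with the mouse number), with the mean and SD of each group of 6 as horizontal line and bar. WT mice 3 and 4 sit at the top of the WT group for 9 of 10 genes, and KO mouse 2 is the lowest KO mouse for 7.

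Among the tested members, Egr1 had the largest difference and Klf6 the smallest p, and neither passed the test. Egr1, which carries growth factor and injury signals to its target promoters, ranged from 78.7 to 261 CPM in WT (median 147) and from 50.7 to 155 in KO (median 84). In KO, 3 mice lay below every WT mouse, and WT mice 3 and 4 lay above every KO mouse. The means were 150 ± 65.3 and 97.3 ± 42.3 CPM (log2 difference -0.62, 95% interval -1.29 to 0.04, limma adjusted p = 0.552, exact permutation p = 0.108). Klf6, first known from activated stellate cells, ranged from 83.1 to 138 CPM in WT (median 104) and from 73.7 to 109 in KO (median 79.9). In KO, 4 mice lay below every WT mouse, and KO mouse 1 was level with WT mouse 1 and above 3 others. The means were 104 ± 20.2 and 84.3 ± 12.7 CPM (log2 difference -0.3, SE 0.12, limma adjusted p = 0.415, exact permutation p = 0.0519). The adjusted p of Klf6 ran from 0.231 without KO mouse 1 to 0.771 without WT mouse 4, and its difference from -0.37 to -0.21.

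The remaining members are a nuclear protein and a pair of feedback genes. Ier2, a small nuclear protein of the early response, ranged from 23.1 to 50.6 CPM in WT (median 38.1) and from 21.8 to 41.7 in KO (median 33.8). Btg2, an antiproliferative cofactor of mRNA deadenylation, ranged from 45 to 155 (median 93.4) and from 50.3 to 96.3 (median 70). WT mice 3 and 4 lay above all KO mice for both. Dusp1, the phosphatase that switches off MAP kinases, ranged from 31.8 to 98.2 (median 60.4) and from 29.1 to 85.7 (median 63.9). Its 61.6 ± 27.4 CPM in WT and 61.2 ± 18.5 in KO were the closest pair of means among the members. The log2 differences were -0.2 for Ier2 (SE 0.18, limma adjusted p = 0.791), -0.32 for Btg2 (SE 0.27, 0.785) and 0.05 for Dusp1 (95% interval -0.6 to 0.7, 0.979). With each mouse left out in turn, the differences ran from -0.33 to -0.1 for Ier2, from -0.51 to -0.16 for Btg2, from -0.21 to -0.06 for Jun, from -0.29 to -0.05 for Junb, from -0.15 to -0.01 for Jund, from -0.79 to -0.44 for Egr1, from -0.77 to -0.25 for Fos and from -1.14 to -0.34 for Fosb. The sign for Dusp1 turned when WT mouse 1, WT mouse 2 or KO mouse 4 was left out, with values from -0.11 to 0.25 over the 12 mice left out in turn.

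Mice of the same genotype differed far more in these genes than in most others. The SD between mice within a group, on the log2(CPM + 1) scale, had a median of 0.42 over the 9 tested members and 0.14 over all tested genes, and all 9 lay above the latter. Fos had an SD of 0.84, which only 22 of the 9186 tested genes exceeded. Egr1 was at 0.62 with 63 genes above it, Dusp1 at 0.6 with 72 and Btg2 at 0.55 with 97. Junb (0.42), Ier2 (0.35), Jun (0.3), Klf6 (0.24) and Jund (0.22) were lower, and 83.8% of tested genes were less variable than Jund. Against genes within a factor of 2 of its mean level, Jund was above 85.5% and Fos above 99.7%. For Fosb, 1 of 4108 such genes had a larger SD than its 1.14. For 8 of the 10 members the difference between genotypes was smaller than this SD, Egr1 and Klf6 being the exceptions.

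**Figure D3:**
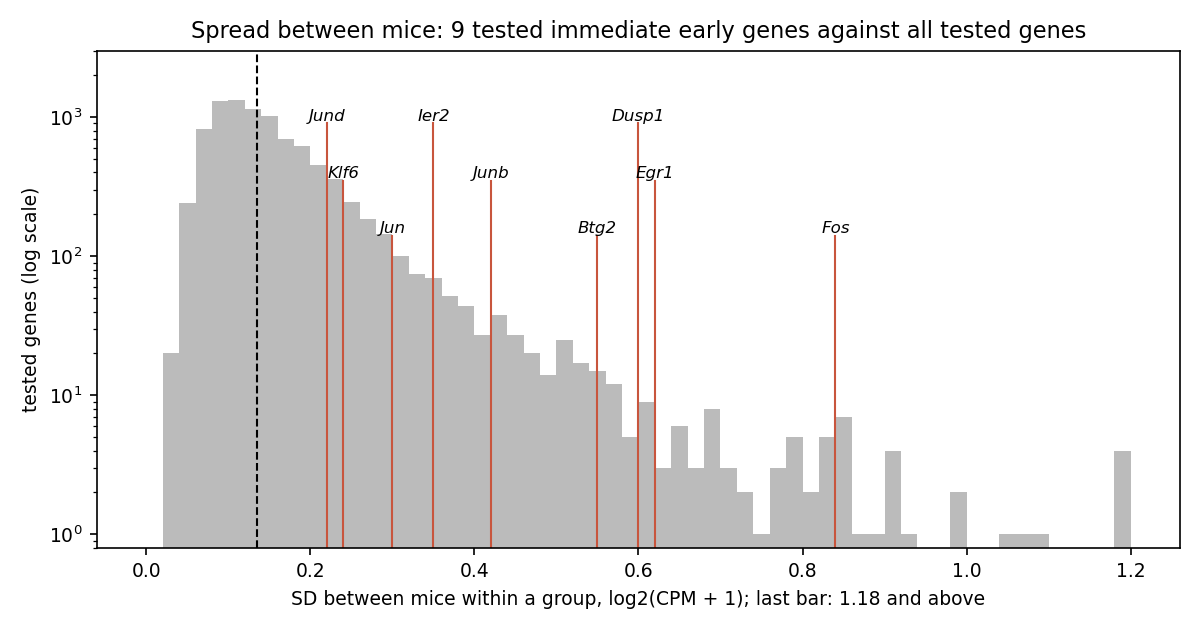
Number of tested genes (log axis) by their SD between mice within a group on the log2(CPM + 1) scale. The dashed line is the median of all tested genes, 0.14, and the red lines are the 9 tested immediate early genes, from 0.22 for Jund to 0.84 for Fos.

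As a share of the mean, Fos varied by 52.1% in WT and 82.1% in KO, and Jund by 19% and 12%. The coefficient of variation of a tested gene had a median of 9.71% in WT and 9.15% in KO. On the log2 scale the SD was larger in WT than in KO for 7 members, the exceptions being Fos, Fosb and Egr1, which was at 0.62 in both. Another measure was the mean absolute deviation from the group mean, scaled for group size. By it, spread was smaller in KO for every member but Egr1 and Ier2 (KO minus WT 0.02 and 0.01). By that measure it was smaller in KO for 52.1% of tested genes, and the members vary together. A limma fit of the scaled absolute deviations found no member whose spread differed between genotypes, and called 0% of the tested genes. At an unadjusted p under 0.05 it picked 0 members and 4.83% of tested genes. The smallest unadjusted p was that of Junb (0.0693, difference in mean scaled deviation -0.27, 95% interval -0.56 to 0.02, adjusted p = 0.969). This fit has little power with 6 mice per group. In simulated data it recovered 2.5% of genes whose spread was made 5 times as large.

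The same mice were high or low for nearly every member. In WT, mice 3 and 4 were the top 2 for 9 members, and for Dusp1 they were mice 4 and 6. WT mouse 1 was lowest for 9 members, while for Klf6 that was mouse 6. In KO, mice 2 and 5 were the bottom 2 for 8 members. The top of the KO group was more mixed. Mouse 1 led for 5 members (Fos, Fosb, Egr1, Ier2 and Klf6), mouse 4 for 3 (Junb, Btg2 and Dusp1), mouse 3 for Jund and mouse 6 for Jun. Among all 12 mice, WT mouse 4 was in the top 3 for 10 of 10 members and KO mouse 2 in the bottom 3 for 10 of 10. The mean over the tested members of log2(CPM + 1) relative to the median of 12 mice was 0.72 in WT mouse 4, 0.53 in WT mouse 3 and 0.33 in KO mouse 1. It was -0.6 in KO mouse 2, -0.48 in WT mouse 1 and -0.39 in KO mouse 5. Depth did not follow this order, at 57.4, 52.6 and 67.1 counts per CPM in the first 3 and 46.3, 57.9 and 55.4 in the last 3.

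**Figure D4:**
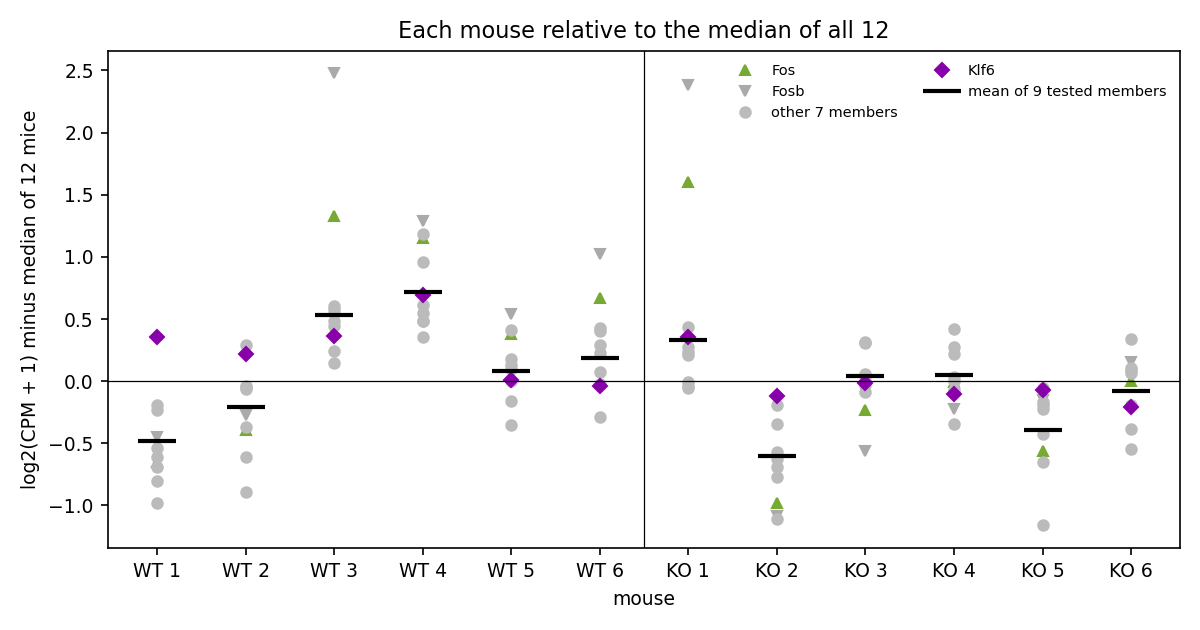
Log2(CPM + 1) of each immediate early gene in each mouse minus its median over the 12 mice, with the mean of the 9 tested genes as a black bar. The bars run from -0.6 in KO mouse 2 to 0.72 in WT mouse 4, and Klf6 is drawn as diamonds.

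With group means removed, all 45 pairs of members were positively correlated over the 12 mice, as a description and with no test. Pearson's r had a median of 0.71 (range 0.14 to 0.96) and Spearman's rho a median of 0.7 (0.1 to 0.97), where the median r of all pairs of tested genes was 0.09. Within WT alone the median r was 0.83 and within KO alone 0.58. With group means removed and each tested member scaled by its SD within groups, WT mice 4 and 1 had the mean scores farthest from the median, at 1.31 and -1.27. Without these 2 mice the median r was 0.6 with a range of -0.03 to 0.97. These values share libraries, scaling and mice, and the pairs are not independent. Fos and Fosb were the closest pair (0.96), followed by Junb with Btg2 and Junb with Dusp1 (0.91 each). Klf6 was the loosest member, with a median r of 0.39 in its 9 pairs against 0.74 in the 36 pairs without it. Against the mean of the other tested members, r was 0.92 for Btg2 and 0.91 for Ier2, 0.77 to 0.86 for Fos, Fosb, Jun, Junb, Jund, Egr1 and Dusp1, and 0.42 for Klf6. Of the windows printed above, the 5 that hold TGACG (Fos, Fosb, Junb, Btg2 and Dusp1) belong to genes with an r of 0.79 to 0.92 on this measure. Jun, Jund and Klf6, whose windows lack it, were at 0.85, 0.78 and 0.42. A link between the motif and r was not tested. The Klf6 window was printed with its low r known, and the Jund window lies wholly before the annotated gene.

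**Figure D5:**
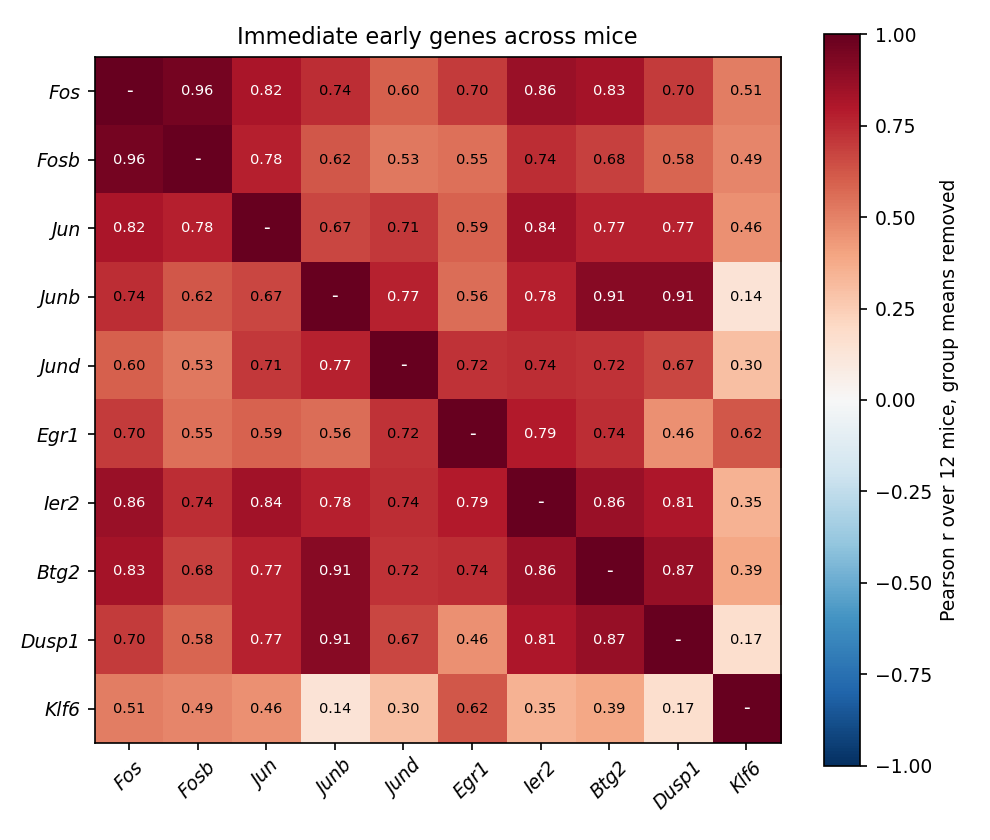
Pearson's r between each pair of immediate early genes over 12 mice, computed on log2(CPM + 1) with group means removed. All 45 values lie above 0, from 0.14 for Junb with Klf6 to 0.96 for Fos with Fosb, and the row of Klf6 is the palest.

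The 12 tested genes whose levels followed the mean of the members most closely had an r of 0.79 to 0.88 over the 12 mice (rho 0.73 to 0.88, and r 0.59 to 0.89 without WT mice 1 and 4). Genes with a Gm, Rik or pseudogene name or no symbol were left out of this ranking. Of the 12 genes, 5 were in the list of other immediate early genes, which holds 22 of the 9186 tested genes. They were Trib1 (0.88), a pseudokinase that directs protein degradation, Atf3 (0.88), an AP-1 family repressor, and Nr4a1 (0.85), an orphan nuclear receptor. Next came Ppp1r15a (0.79), which helps remove phosphate from eIF2alpha, and Zfp36 (0.79), which destabilizes mRNAs. The other 7 were the stress cytokine Gdf15 (0.85), Nrbf2 (0.85), an autophagy protein, Larp4b (0.84), an RNA-binding protein, the mitochondrial carriers Slc25a25 (0.8) and Slc25a3 (0.79), Hmces (0.79), a DNA repair protein, and Madd (0.79). Nr4a1 ranged from 7 to 35.4 CPM in WT and from 6.02 to 21 in KO. Slc25a3 ranged from 199 to 227 and from 208 to 223, so a like pattern did not need a wide range. None of the 12 passed the genotype test (limma adjusted p = 0.487 to 0.996).

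Of 32 other immediate early genes 22 were tested. With limma 0 rose and 0 fell, and 2 had an unadjusted p under 0.05, both lower in KO, against 9.8% of tested genes in either direction. The median difference was -0.13 with 15 of 22 below 0. Rhob, a small GTPase, averaged 106 ± 9.9 CPM in WT mice and 87.1 ± 14.4 in KO mice (limma adjusted p = 0.313). Atf3 was at 52.9 ± 18.1 and 36.6 ± 9.2 (0.487), Maff, a small Maf protein, at 12.8 ± 3.79 and 9.72 ± 2.63 (0.576), and Egr2, a relative of Egr1, at 11.9 ± 1.99 and 9.96 ± 2.32 (0.646). These genes were also variable between mice. All 22 had an SD above the median of tested genes, with a list median of 0.38, and 21 had a positive r with the mean of the members (median 0.71, against 0.06 over tested genes). Ier5 was the exception at -0.08.

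Genes that carry the signal to these promoters had a spread between mice close to that of tested genes in general. Of 19 SRF, ETS, CREB and MAP kinase genes 18 were tested, 0 rose and 0 fell. An unadjusted p under 0.05 was found for 2, both lower in KO, against 9.8% of tested genes in either direction. Over the 18 genes, the SD between mice had a median of 0.11, with 7 of 18 above the median of tested genes. The r with the members had a median of 0.05 (range -0.44 to 0.61). Atf1, a CREB relative, was at 27 ± 1.54 CPM in WT mice and 24.5 ± 0.704 in KO mice (limma adjusted p = 0.302), and Mrtfb, a cofactor of SRF, at 97.2 ± 13.6 and 78.9 ± 12.3 (0.343). The kinases Mapk3 (58.5 ± 3.54 and 53.5 ± 4.57, 0.557) and Mapk9 (65.3 ± 2.31 and 69.5 ± 3.86, 0.616) came next by p. Kinase activity is set by phosphorylation, which transcript levels do not show.

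Other dimer partners of AP-1 were not called either. Of 15 genes, some of them in the list of other immediate early genes, 10 were tested, 0 rose and 0 fell, and the median difference was -0.05. After Atf3 and Maff, Fosl2 was at 61.5 ± 16 CPM in WT mice and 50.4 ± 9.44 in KO mice (limma adjusted p = 0.657). Over the 10 genes, r with the mean of the members had a median of 0.35, and the highest was that of Atf3.

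Of 15 genes known as AP-1 or Egr1 targets 8 were tested, 0 rose, 0 fell and 2 had an unadjusted p under 0.05 (9.8% of tested genes), with a median difference of -0.13. Thbs1, a matricellular protein, was at 36.3 ± 6.38 CPM in WT mice and 28.1 ± 5.61 in KO mice (limma adjusted p = 0.333) and Vim, the mesenchymal intermediate filament, at 150 ± 34.4 and 119 ± 12.4 (0.414). Cd44 (82.8 ± 14.4 and 74.7 ± 9.07, 0.769) and Hmox1 (70.5 ± 8.36 and 64.8 ± 12, 0.795) followed. Below the minimum, and so only in the fit without it, Mmp13, a collagenase, ranged from 5.59 to 7.62 CPM in WT and from 8.95 to 11 in KO, with the groups apart. Its log2 difference was 0.44 (SE 0.08, limma adjusted p = 0.0561). Timp1, an inhibitor of such proteases, ranged from 3.93 to 6.68 and from 3.31 to 4.29 (log2 difference -0.39, SE 0.1, limma adjusted p = 0.111). Both were named after their values were seen. As a list the 8 tested genes did not follow the members across mice (median r -0.01).

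Transcripts that mark glucocorticoid or heat shock responses were set beside the members, since both responses can accompany handling. Of 12 glucocorticoid-responsive genes, all tested, 0 rose and 0 fell. An unadjusted p under 0.05 was found for 2, Fkbp5 higher and Sgk1 lower in KO, against 9.8% of tested genes. Of the 12 genes, 11 had a positive r with the members (median 0.55, highest Per1 at 0.69). Over all tested genes 57.3% had a positive r, with a median of 0.06. Tsc22d3 was the exception at -0.08. All 12 had an SD above the median of tested genes. Fkbp5, a chaperone of the glucocorticoid receptor, was at 27.5 ± 4.63 CPM in WT mice and 37.9 ± 5.77 in KO mice (limma adjusted p = 0.17), and Sgk1 at 49.5 ± 10.2 and 40.1 ± 5.6 (0.474). Errfi1 (777 ± 204 and 887 ± 207, 0.826) and Pck1 (1590 ± 331 and 1800 ± 489, 0.839) followed by p. The median difference of the list was 0.12. Of 12 heat shock genes 11 were tested, 0 rose and 0 fell, the median difference was 0.03 and the median r with the members was 0.05 (range -0.57 to 0.41). Dnaja1 was at 94.9 ± 10 CPM in WT mice and 104 ± 15.1 in KO mice (0.759), Dnajb1 at 18.9 ± 1.87 and 20.3 ± 2.61 (0.795), Hspa1b at 24.2 ± 4.86 and 27.3 ± 7.38 (0.834) and Hsph1 at 28.5 ± 4.65 and 31.1 ± 7.09 (0.875). The part of either response in the spread of the members was not tested.

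Summed cell type markers did not follow the members closely, with group means removed. The r with the mean of the members was -0.08 for 6 hepatocyte markers, -0.2 for 6 stellate and fibroblast markers, 0.07 for 5 endothelial markers, 0.27 for 5 Kupffer cell markers and -0.08 for 6 markers of monocytes and macrophages. It was 0.09 for 5 neutrophil markers, 0.2 for 4 B cell markers, -0.07 for 5 cholangiocyte markers and -0.32 for 4 smooth muscle markers. The farthest from 0 was the sum of 5 T and NK cell markers at -0.62 (rho -0.46), with 5 of 5 markers negative. Each of these 5 markers averaged below 10 CPM in both groups. Their sum ran from 4.39 to 11.9 CPM in WT and from 6.02 to 9.69 in KO, highest in WT mouse 1 and lowest in WT mouse 4. WT mouse 1 was also the highest of all mice for stellate and fibroblast, monocyte and macrophage, and cholangiocyte markers. For Kupffer cell markers it was the lowest. The part of these cells in the spread of the members was not tested. Between genotypes, cholangiocyte markers summed to 43.3 to 98.7 CPM in WT and 20.7 to 39.6 in KO, with no overlap. Ranges overlapped for the other lists, among which Kupffer cell markers summed to 182 to 322 CPM in WT and 304 to 469 in KO, stellate and fibroblast markers to 876 to 1480 and 769 to 980, and monocyte and macrophage markers to 1240 to 2150 and 851 to 1280. Their part in the KO means of the members was not tested. Of the erythroid markers Alas2 could be used (44.3 to 65.7 CPM over all mice), of the exocrine pancreas markers Cela2a, and the adipose markers were not analysed here.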

How the data were processed

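Liver RNA of 6 WT and 6 KO mice was measured by sequencing. The authors deposited 1 table of CPM, each column summing to 1000000. Per the labels' protocols, libraries used rRNA depletion and a directional kit. Per the submitters' processing notes, mm10, Partek 10.0, STAR 2.7.3a and DESeq2 1.14.1 were named without a role. In each library 72.8% to 77.4% of low values lay within 0.02 of a whole step of 1 count. That gave the depth (46.3 to 77.9 counts per CPM) but too few whole values for a count model. The labels name polyA RNA, while the protocol names depletion. No step but these is given in the sources used here. Intervals of counting error ignore that reads are not independent molecules.

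The 9186 genes averaging 10 CPM or more were compared on the log2(CPM + 1) scale, from the deposited values, by two-sided limma 3.58.1 in R 4.3.3. The fit used a mean trend, and p-values were adjusted over all tested genes (Benjamini-Hochberg, threshold 0.05). Spread was tested by the same fit of absolute deviations from the group mean. Each deviation was multiplied by the square root of n/(n - 1), with n the mice in its group. Exact permutation used all 924 assignments, two-sided, and can give no p below 0.00216. P-values set a difference between the genotypes against the spread between these mice. In simulated data, 88% of 1.5-fold and 100% of 2-fold changes were recovered among 9186 genes, with 7 false calls over all folds. The changed genes were drawn from all tested genes, whose SD between mice had a median of 0.14, against 0.42 for the tested members. These shares therefore do not apply to the members, for which recovery was not simulated separately. Mice of a group differed by more than counting noise (chi-square, median over genes, 2.82 to 9.7).

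Symbols were found for 20055 IDs and not for 88. Overlaps used GENCODE and BLASTN 2.17.0. Correlations used SciPy 1.17.1.

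Members and lists were chosen with earlier results of these data known. Genes were named by rule: the 10 members, Hsd17b13, up to 4 genes of smallest p per list, and the 12 genes most like the members' mean. The last excluded members, Gm, Rik and pseudogene names, and genes without a symbol. Some results that the rule would name are not reported here. Cela2a, Alas2, Prdx2, Junos, Ergic1, Gm11175, Ier5, Per1, Tsc22d3 and Rplp0 were named after their values were seen. Alternatives were pseudocounts of 0.5 and 10, no filter, a minimum of 1 CPM, median-of-ratios and quantile scaling, no mean trend, library weights, a replicate block and each mouse left out.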

Additional observations from a re-analysis of the deposited data

Results flagged for a closer look

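In 20 sets of 6 mice (10 genes in 2 groups), 4 CPM values lay far from the rest of their group by Dixon's criterion. In normally distributed values chance meets it in about 1 of 20 sets. That rate need not hold for these CPM values, which were not put on the log2(CPM + 1) scale of the tests. The members vary together, so these sets are not independent. Fos was at 64.4 CPM in KO mouse 1, and the other KO mice averaged 16.4 ± 4.6. Fosb was at 19.3 CPM in KO mouse 1, with the others at 2.13 ± 0.937, and at 20.7 CPM in WT mouse 3, with the others at 4.84 ± 2.91. Klf6 was at 109 CPM in KO mouse 1, with the others at 79.3 ± 3.93. Without KO mouse 1 the limma adjusted p was 0.438 for Fos, 0.311 for Fosb and 0.231 for Klf6, so none passed.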

How the results depend on the processing

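With each of 21 alternatives, 0 members passed limma. Of 209 member values recomputed, 206 kept their sign, and the 3 that turned were all Dusp1 (-0.11 without WT mouse 1, -0.09 without WT mouse 2, -0.06 without KO mouse 4, and up to 0.25 without KO mouse 2). The lowest adjusted p of a member was 0.231. The count over all genes, 14, moved to 29 with no filter, 31 with a minimum of 1 CPM and 35 with library weights, and ran from 9 (without WT mouse 3) to 25 (without KO mouse 3) with 1 mouse left out. The cause was not tested. The count for spread ran from 0 to 1 when 1 mouse was left out, the call being Cela2a without WT mouse 3 or KO mouse 3 and Rplp0 without KO mouse 4. The replicate block gave 11 calls and 0 members. Nothing in the labels pairs the mice by number, and the deviations of same-numbered mice had r from -0.51 to 0.39 (over 0.1 in 4 of 6 pairs, and 2 of 6 WT mice correlated best with their own number), so the numbers were not taken as pairs.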
